A study of Mus musculus with 2 samples.

Results

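Cholesterol and fatty acid synthesis is described here through 32 genes fixed by name, out of 32285 genes in the deposited matrices. They were taken by their symbols and not by a cutoff on a measured value, but the list was chosen with earlier results of these data known. They fall into 4 roles: 17 cholesterol enzymes, 3 sterol control genes, 8 genes of fatty acid synthesis and 4 genes of esterification and wax. All 32 had a row in the matrices, and all had at least 50 unique molecular identifiers (UMIs, each standing for 1 captured RNA molecule) in both libraries together.

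The study made a mouse model of androgenetic alopecia (AGA), the androgen-dependent loss of hair. Male C3H/HeN mice were shaved on the back at 7 weeks of age, and the AGA group, called TP, received testosterone propionate under the skin at 0.5 mg/day. The control group received vehicle. Dorsal skin was collected at 9 weeks, and the skin of 15 mice per group was pooled, digested and sequenced as 1 library of single cells, so control and TP each contribute 1 sample. A group of TP mice that also received a neutralizing antibody against the chemokine CXCL12 is not analysed here. With pooled mice and 1 library per group, a difference between control and TP has no replicate check, and no p-value is given. The intervals printed below are exact 95% counting intervals of a sum of UMIs or of a ratio of sums. They cover counting error only, not the spread between cells, mice, digestions or libraries. Each UMI is taken as independent, so the intervals are too narrow where a few cells held much of a sum. Effects of the androgen, of the library and of the cells each suspension happened to hold cannot be told apart in this design.

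Skin makes its own cholesterol and fatty acids. Keratinocytes of the upper epidermis load them into the lamellae of the water barrier, and sebocytes of the sebaceous gland store them as triglycerides and wax esters until the cell bursts as sebum. Cells switch the pathway through SREBP proteins, the products of Srebf1 and Srebf2, which stay in the endoplasmic reticulum while sterol is plentiful, held there with the help of Insig1, and otherwise move to the nucleus to raise the genes of the pathway. SREBPs bind sterol elements next to sites of the factors NF-Y and Sp1.

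The sequences just upstream of the start sites are shown because most of the cholesterol enzymes share short motifs there. RefSeq windows of the 250 bases upstream (GRCm38.p6) were matched for 24 of the 32 genes and searched on both strands for CCAAT (the NF-Y letters), GGGCGG (the Sp1 letters) and TCACNCCAC (a sterol element, N being any base). The last 150 bases before the start site are printed for 4 enzymes, 5′ to 3′ on the strand of the gene, with the matches in capitals. Hmgcs1 makes HMG-CoA at the top of the pathway and held the only match of TCACNCCAC. Idi1 and Msmo1 had the largest ratios of TP to control in 1 epidermal class, and Lss was the 1 enzyme lower in TP over all cells.

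Hmgcs1, chr13:119690201-119690350, plus strand: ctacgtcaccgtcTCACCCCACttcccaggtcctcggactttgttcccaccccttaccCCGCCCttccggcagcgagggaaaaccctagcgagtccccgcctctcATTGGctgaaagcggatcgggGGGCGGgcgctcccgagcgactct
Idi1, chr13:8885456-8885605, plus strand: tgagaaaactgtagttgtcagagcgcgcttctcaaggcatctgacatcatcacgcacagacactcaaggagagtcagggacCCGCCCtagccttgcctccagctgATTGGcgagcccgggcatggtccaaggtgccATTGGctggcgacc
Msmo1, chr8:64733579-64733728, minus strand: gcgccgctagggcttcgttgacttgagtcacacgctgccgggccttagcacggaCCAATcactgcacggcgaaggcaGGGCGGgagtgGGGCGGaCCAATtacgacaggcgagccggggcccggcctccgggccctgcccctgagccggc
Lss, chr10:76531455-76531604, plus strand: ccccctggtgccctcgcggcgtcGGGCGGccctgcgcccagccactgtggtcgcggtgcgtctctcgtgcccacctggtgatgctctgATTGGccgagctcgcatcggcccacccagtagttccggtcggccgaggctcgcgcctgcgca

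CCAAT, which reads ATTGG on the other strand, was present in the windows of 14 of 14 cholesterol enzymes and 3 of 3 sterol control genes. It was present in 1 of 5 fatty acid genes (Fasn) and in 1 of 2 esterification genes (Soat1). Over all 27025 genes with such a window, 37.5% held it. GGGCGG, or CCGCCC, was present in 13 of 14 cholesterol enzymes, 3 of 3 sterol control genes, 1 of 5 fatty acid genes (Acly) and 1 of 2 esterification genes (Far2), against 35.4% of all genes. TCACNCCAC was present in 1 of the 24 windows, that of Hmgcs1, against 1.22% of all genes. The windows of the enzymes with higher and lower levels in TP held the same first motif. A match is a string of letters and not a measured binding site.

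The control library held 45709 cell barcodes and 130999979 UMIs, and the TP library 25931 barcodes and 166929585 UMIs. After the limits of the study on genes and mitochondrial counts, and after removal of doublet calls, 39076 control cells with a median of 2051 UMIs and 18542 TP cells with a median of 4883 UMIs remained. The mitochondrial limit removed 7.58% of the control barcodes and 22.6% of the TP barcodes. The libraries shared 303 barcodes. Clustering without any of the 32 genes gave 33 populations, of which 10 clusters with 47.9% of control cells and 24.9% of TP cells stayed unnamed. The others formed 16 classes named "-like" from marker genes. The mix of classes differed: inner root sheath-like cells numbered 5713 in control and 1035 in TP, whereas interfollicular epidermis (IFE) suprabasal-like cells numbered 2182 in control (5.58% of cells) and 3315 in TP (17.9%). IFE suprabasal-like cells carried 14.2% of all control UMIs and 34.8% of all TP UMIs. Values taken over all cells combine these shares with the levels within each class.

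**Figure D1:**
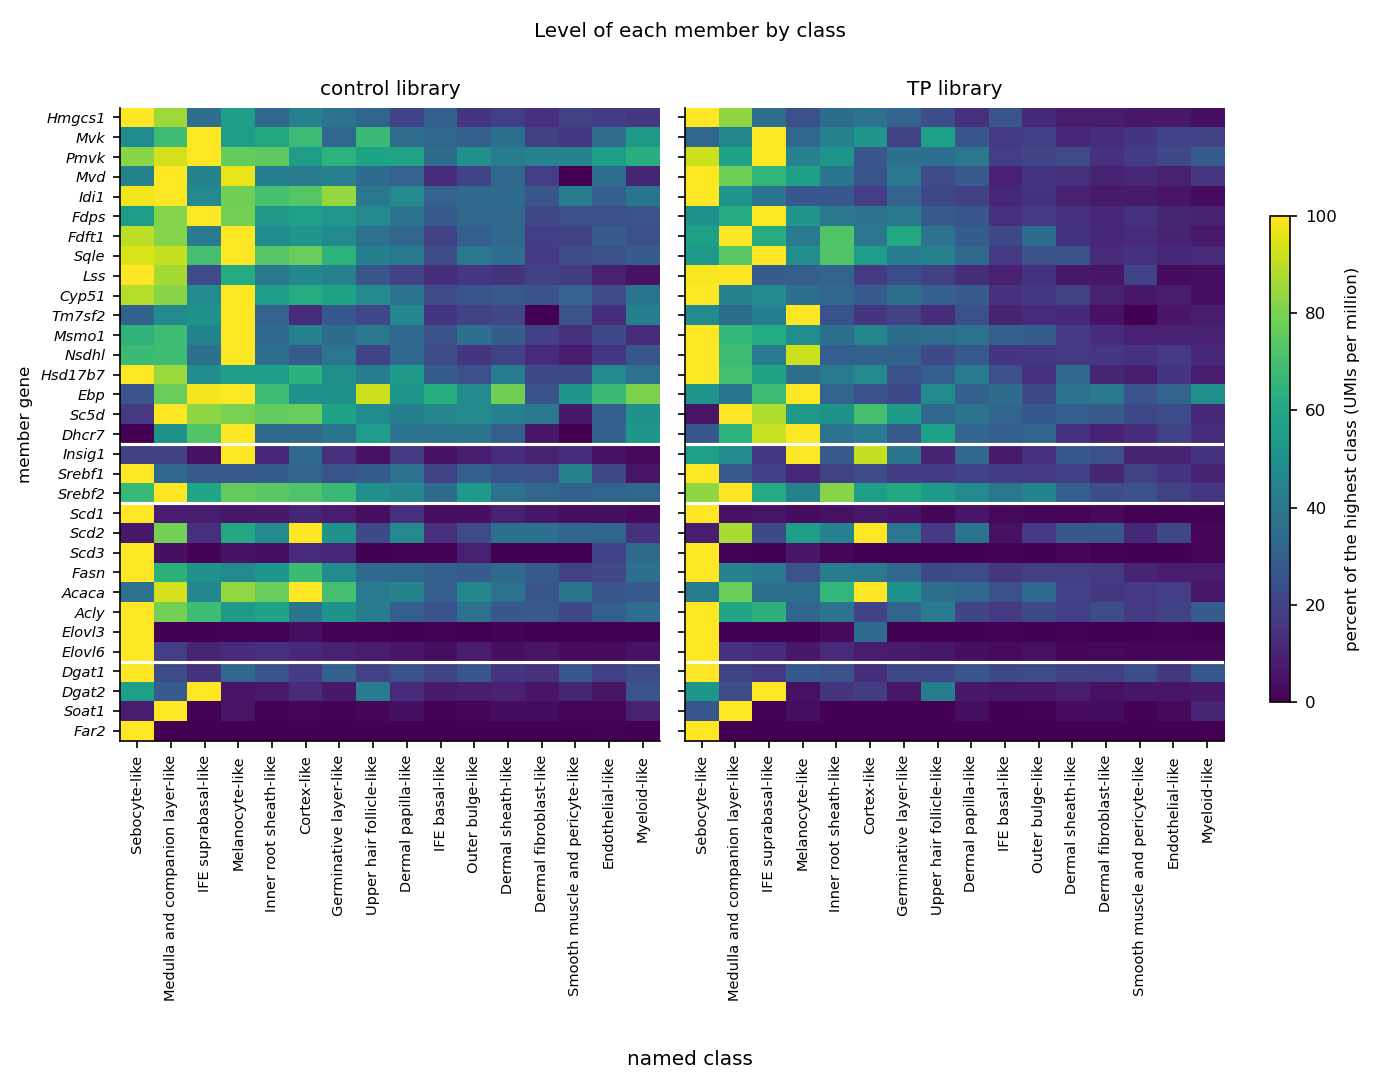
Level of each of the 32 genes (rows, by role) in each of the 16 named classes (columns, ordered by the cholesterol enzyme level in TP), as a percent of the highest class of the same library, for control and for TP. Most rows reach their highest value in a few classes, the sebocyte-like class being the highest for 12 genes in control and for 16 in TP. For many genes in control, the counting intervals of other classes overlap that of the highest. The same count was not made over all genes.

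Before the groups are compared, the classes can be ranked by how much of the pathway they expressed. Levels are given as counts per 1000000 UMIs of the same cells (CPM). The sebocyte-like, medulla and companion layer-like, IFE suprabasal-like and melanocyte-like classes held the 4 highest summed levels of the 17 cholesterol enzymes in both libraries. Medulla and companion layer-like cells, a cluster of the inner hair follicle led by Vat1l, Gpnmb and Kitl, had 2371 CPM in control and 3153 CPM in TP. Melanocyte-like cells had 2228 CPM in control and 1931 CPM in TP, and sebocyte-like cells had 2259 CPM in control and 3817 CPM in TP. In control these 3 levels lay close together, and the interval of the 50 sebocyte-like cells (2012 to 2528 CPM) includes both others. IFE suprabasal-like cells stood at 1568 CPM in control and 2759 CPM in TP. Ranked by level, the classes were therefore not in the same order in both libraries. The median TP cell of the sebocyte-like class had 1991 CPM. That was below the median cell of the medulla and companion layer-like (2137 CPM) and IFE suprabasal-like classes (2068 CPM).

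Single genes were highest in different classes, though many of these first places were not clear of the next class. Counting the class with the highest level of each gene, control gave 12 genes to the sebocyte-like class, 9 to melanocyte-like, 5 to medulla and companion layer-like, 4 to IFE suprabasal-like and 2 to cortex-like cells. TP gave 16 to sebocyte-like, 5 to IFE suprabasal-like, 5 to medulla and companion layer-like, 4 to melanocyte-like and 2 to cortex-like cells. In control the counting interval of the highest class overlapped those of 12 other classes for Hsd17b7, 10 for Scd3 and 8 for Ebp. Insig1 alone of the melanocyte-like genes of control had no overlap. Of the sebocyte-like genes of control, only Scd1, Elovl3, Elovl6 and Far2 had none. Mvk and Pmvk, the kinases of mevalonate, and Fdps, which makes farnesyl diphosphate, were highest in IFE suprabasal-like cells in both libraries. So was Dgat2, which joins the last fatty acid to a triglyceride. In control the intervals of other classes overlapped for Mvk, Pmvk and Dgat2, but not for Fdps. In TP sebocyte-like cells overlapped for Pmvk. Scd2, a desaturase that makes monounsaturated fatty acids, and Acaca, the acetyl-CoA carboxylase that commits carbon to fatty acids, were highest in cortex-like cells, at 465 and 471 CPM in control and 451 and 440.1 CPM in TP. Medulla and companion layer-like cells overlapped the cortex-like cells for Acaca in control and for Scd2 in TP. Insig1 was highest in melanocyte-like cells, at 195 CPM in control and 108 CPM in TP, where cortex-like cells overlapped. Soat1, which esterifies cholesterol, stood at 1220.5 CPM in control and 1204 CPM in TP in medulla and companion layer-like cells, and these cells held 69.8% and 63.9% of all its UMIs.

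Across the 33 populations, with both libraries joined, most pairs of these genes had levels that went up and down together, as a description. Of the 136 pairs of cholesterol enzymes, 134 had a Spearman correlation above 0, with a median of 0.74. The 28 pairs of fatty acid genes had a median of 0.45, and the 136 pairs of a cholesterol enzyme with a fatty acid gene a median of 0.65, with 133 above 0. Measured against the rest of the cholesterol enzymes, Cyp51, the lanosterol demethylase, was most like the others (0.95) and Ebp, a sterol isomerase, least like them (0.24). Dgat2 (0.29), Far2 (0.06) and Soat1 (-0.17) followed the cholesterol enzymes weakly or not at all. The populations share libraries and differ in depth, so these correlations carry no p-value. Pairs of other genes were not correlated in this way, so how far the values are particular to these genes cannot be told.

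**Figure D2:**
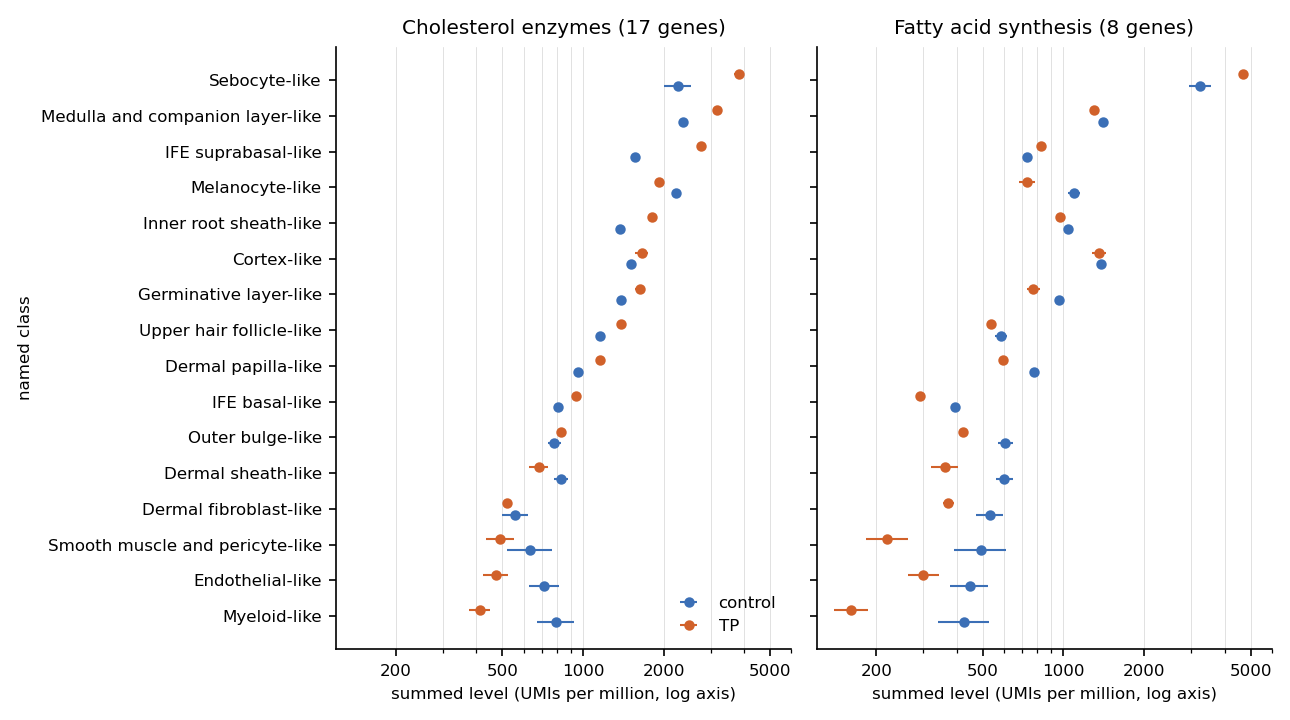
Summed CPM (log axis) of the 17 cholesterol enzymes and of the 8 fatty acid synthesis genes, 1 panel each, in the 16 named classes, control and TP as separate points with exact 95% counting intervals. Cholesterol enzymes were higher in TP in 10 of the 16 classes and fatty acid synthesis genes in 2.

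Over all cells, the cholesterol enzymes were higher in TP and the fatty acid genes lower. The sum of the 17 cholesterol enzymes was 1366 CPM in the control library against 1800 CPM in the TP library, 1.32 times the control level (1.31 to 1.33). The 8 fatty acid genes summed to 890.2 CPM in control and 696 CPM in TP (0.782 times, 0.775 to 0.789). The 4 esterification and wax genes summed to 100.3 CPM in control and 137 CPM in TP (1.37 times, 1.34 to 1.40). The 3 sterol control genes summed to 182 CPM in control and 161 CPM in TP (0.888 times), which turned to 1.06 times when the libraries were scaled by TMM factors instead of their totals. Insig1, Srebf1 and Srebf2 had ratios of 0.86, 0.89 and 0.89, and all 3 turned above 1 with those factors. The order of the 4 roles by level was the same in both libraries.

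Of the cholesterol enzymes, 16 of 17 had a higher level in TP, against 34.7% of all genes tested. The largest ratios belonged to Msmo1, which removes methyl groups from sterols (85.7 CPM in control and 165 CPM in TP, 1.93 times), Dhcr7, the reductase of the last step (27.4 and 46.2 CPM, 1.69 times), and Fdps (192 and 322 CPM, 1.68 times). Hmgcs1 took the largest part of the sum, 20.5% in control and 19.5% in TP, and stood at 279.9 CPM in control and 351 CPM in TP. Lss, which closes squalene epoxide into lanosterol, was the exception at 38.3 CPM in control and 22.7 CPM in TP (0.59 times). Hsd17b7 had 42.1 and 42.5 CPM, with an interval of the ratio from 0.97 to 1.05. Between these lay Ebp (1.55), Pmvk (1.52), Mvk (1.40), Tm7sf2, a sterol reductase (1.37), Cyp51 (1.22), Fdft1 (1.16), Mvd (1.15), Sqle (1.12), Idi1 (1.11), Nsdhl (1.08) and Sc5d (1.05). With cells thinned to 1000 UMIs, which gives each cell the same weight and leaves out the 5362 control cells and 860 TP cells below that depth, the sum was 1.10 times the control level with 9 of 17 enzymes above 1. Idi1, Sqle, Mvd, Cyp51, Nsdhl, Hsd17b7, Sc5d and Lss then lay below 1.

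The sum of esterification and wax genes hid a change of its leading gene. Soat1 made up 55.6% of it in control and 25.2% in TP, and Dgat2 27.7% in control and 64.8% in TP. Dgat2 stood at 27.8 CPM in control and 88.9 CPM in TP (3.20 times). Soat1 stood at 55.8 and 34.5 CPM (0.62 times), and Dgat1, the other enzyme of that triglyceride step, at 15.5 and 10.8 CPM (0.69 times). Among the fatty acid genes, Acaca had 289 CPM in control and 174 CPM in TP (0.60 times) and Scd2 had 186 and 114 CPM (0.61 times). Scd1, the desaturase best known from sebaceous glands, had 84.1 and 91.5 CPM (1.09 times). Fasn, the fatty acid synthase, and Elovl6, which lengthens palmitate, had ratios of 0.91 and 0.92, which turned to 1.09 and 1.10 with TMM factors. Acly, which supplies acetyl-CoA from citrate, had a ratio of 1.01, and Scd3 was rare, at 0.513 and 0.73 CPM.

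By the fold used in the methods of the study (at least 2-fold, on log2 CPM ratios with 1 UMI added per library), 3 of the 32 genes were apart over all cells, all higher in TP. They were Dgat2, Far2, which makes the fatty alcohols of waxes (123 UMIs in control and 399 in TP), and Elovl3, an elongase of very long fatty acids (73 and 313 UMIs). Over all genes tested, 18.5% were apart by this fold, 8.21% higher in TP and 10.3% lower, so the share among the 32 genes was below that of all genes. The median log2 ratio was 0.16 over the 32 genes and -0.24 over all genes. With TMM factors, which shifted every TP level up alike, Dhcr7 and Msmo1 were also apart, against 17.2% of all genes tested in that setting.

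**Figure D3:**
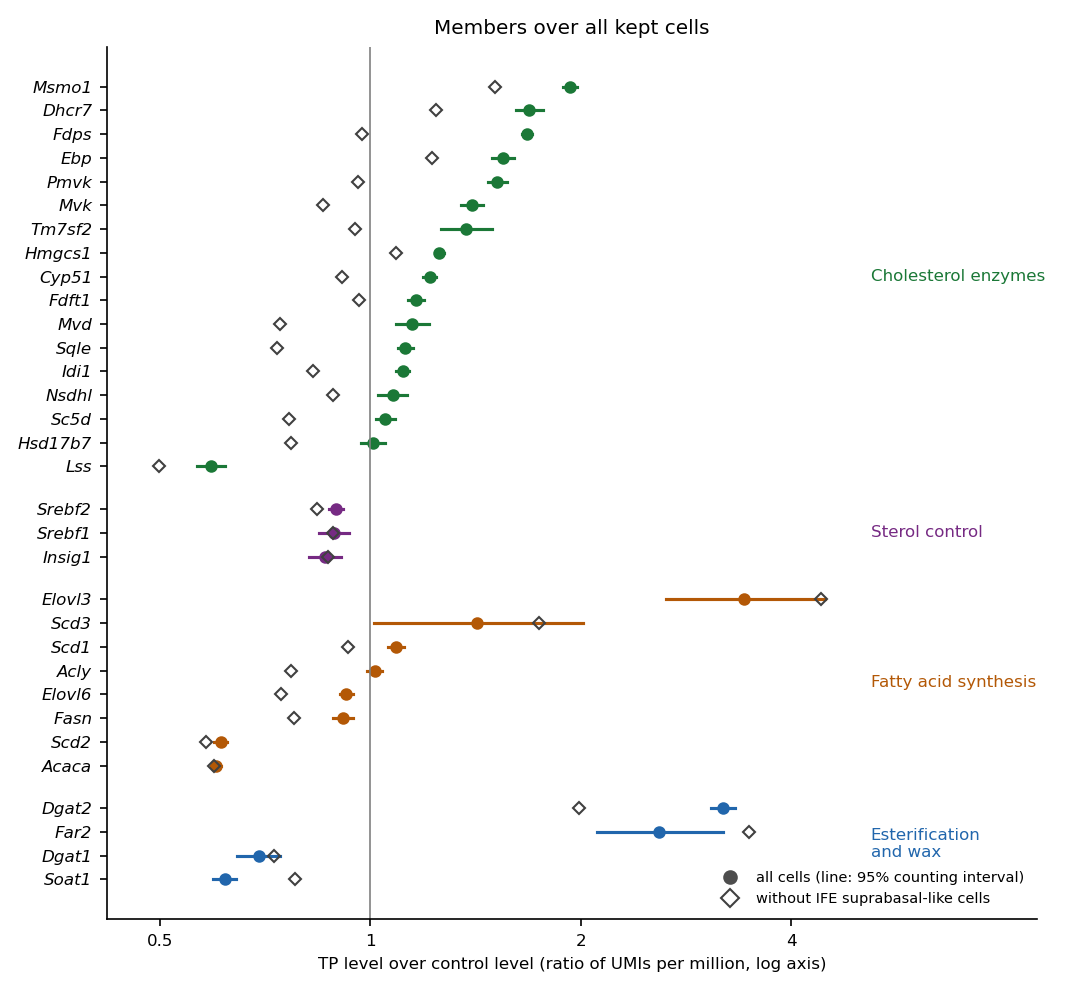
Ratio of TP to control in CPM over all cells for each of the 32 genes (log axis), filled points with the 95% counting interval, and the same ratio without IFE suprabasal-like cells as diamonds. Most cholesterol enzymes lie above 1 with all cells, 16 of 17, and 4 of 17 without that class.

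The values over all cells were also taken with other sets and shares of cells. IFE suprabasal-like cells held 16.3% of the cholesterol enzyme UMIs in control and 53.4% in TP. Without these cells in either library, the cholesterol enzyme sum was 0.966 times the control level, and 4 of 17 enzymes had a ratio above 1: Hmgcs1 (1.09), Msmo1 (1.51), Ebp (1.23) and Dhcr7 (1.24). The esterification sum was then 0.971 times the control level and the fatty acid sum 0.686 times. The 3 genes apart by 2-fold were then Elovl3, Far2 and Lss, with Lss lower in TP, against 15.98% of all genes tested that were apart in that setting. When both libraries were given the population shares of control, the cholesterol sum was 1.23 times the control level, with 14 of 17 enzymes above 1, the fatty acid sum 0.880 times and the esterification sum 1.06 times. Dgat2 was 1.5 times the control level on that scale and Elovl3 3.90 times. These alternatives without a class were chosen after the data had been seen.

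The clearest setting of the cholesterol enzymes was the IFE suprabasal-like class, the differentiating keratinocytes that build the barrier. All 17 enzymes had a higher level in TP there, and their sum was 1.76 times the control level (1.73 to 1.78). Fdps led it at 323 CPM in control and 615 CPM in TP (1.90 times). The 2 enzymes at least 2-fold higher, of 31 of the 32 genes that were tested, were Idi1, which isomerises the isoprene unit (93.1 and 204 CPM, 2.19 times), and Msmo1 (98.2 and 239 CPM, 2.43 times). In the same class 16.2% of all genes tested were apart by this fold, 2.50% higher and 13.7% lower. Of the 31 genes 27 were above control, against 28% of all genes. The median log2 ratio was 0.62 over the 31 genes and -0.29 over all genes tested. In the same cells the 9 IFE suprabasal markers summed to 42293 CPM in control and 66539 CPM in TP and the 5 IFE basal markers to 3616 and 2229.5 CPM, and the part of this shift in the enzyme levels was not tested.

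The other cholesterol enzymes stayed below the 2-fold threshold in IFE suprabasal-like cells. Hmgcs1 had 286 CPM in control and 440.1 CPM in TP (1.54 times), Pmvk 81.3 and 151 CPM (1.86 times), and Mvd, which makes isopentenyl diphosphate, 22.4 and 40.1 CPM (1.79 times). Fdft1, the squalene synthase, had a ratio of 1.72, Sqle, the squalene epoxidase, 1.64, and Cyp51 1.88 (121 and 227 CPM). Of the later steps, Nsdhl and Hsd17b7 act with Msmo1 to remove methyl groups and had ratios of 1.43 and 1.53, while Sc5d, a sterol desaturase, had 1.32 and Dhcr7 1.76. Lss was again the lowest ratio of the 17, at 24.2 CPM in control and 27.2 CPM in TP (1.12 times, 1.00 to 1.27).

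**Figure D4:**
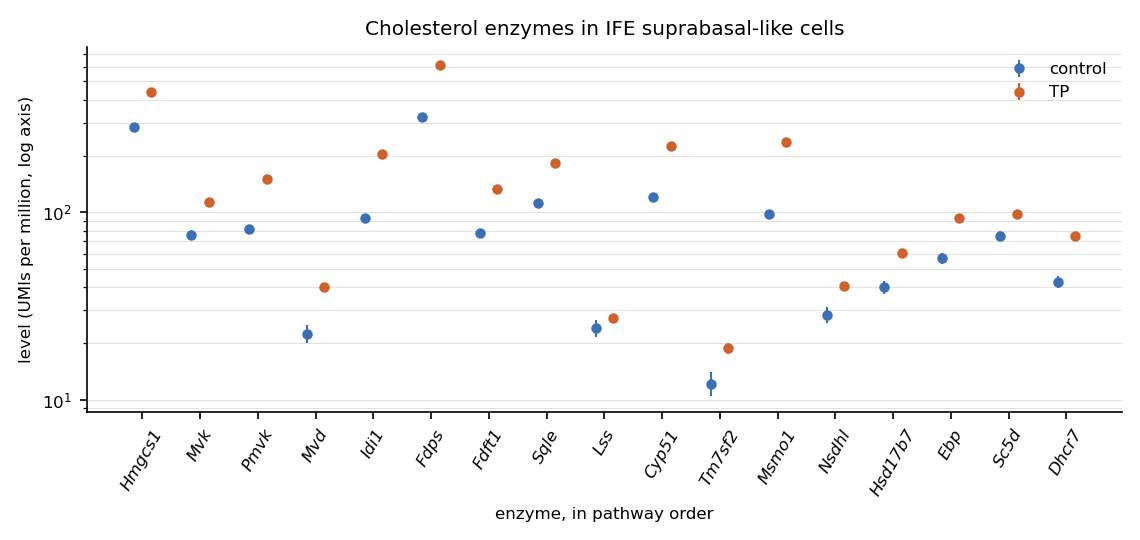
CPM of the 17 cholesterol enzymes in IFE suprabasal-like cells, in pathway order from Hmgcs1 to Dhcr7, for control and TP with 95% counting intervals. Every enzyme lies higher in TP, with Lss closest to equal levels.

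The class joins 2 clusters, an earlier one led by Krt16, Krt6b and Krt1 and a later one led by Hrnr, Flg2 and Flg. The earlier cluster had 1144 CPM in control (1444 cells) and 1690.5 CPM in TP (1808 cells), 1.48 times. The later cluster had 2276 CPM in control (738 cells) and 3573 CPM in TP (1507 cells), 1.57 times. The median cell of the class had 1236 CPM of cholesterol enzymes in control and 2068 CPM in TP. TP cells were deeper, with a median of 10827 UMIs against 5477. After thinning to 1000 UMIs the ratio of the class was 1.72. In 4 bins of cells of like depth it was between 1.33 and 1.77.

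In these keratinocytes the esterification and wax genes summed to 134 CPM in control and 222 CPM in TP (1.66 times, 1.58 to 1.74). Fatty acid genes summed to 734 CPM in control and 823 CPM in TP (1.12 times, 1.10 to 1.15), with Scd2 (63.7 and 101 CPM, 1.59 times) and Acaca (219 and 163 CPM, 0.74 times) on opposite sides. Dgat2 stood at 118 CPM in control and 207 CPM in TP (1.76 times), and the class held 60.3% of its UMIs in control and 81.2% in TP. Insig1 had 8.99 and 17.5 CPM (1.95 times), whereas Srebf2 and Srebf1 had ratios of 1.06 and 0.93.

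Sebocyte-like cells were few, 50 in control and 78 in TP, and were found from markers without any of the 32 genes. Cidea, Acoxl, Fa2h, Plin2 and Pparg led them. The markers Awat1 and Plin5 were at 0 UMIs there in both libraries. Against all other cells of the same library, they had 1.66 times the level of cholesterol enzymes in control (1.47 to 1.85) and 2.13 times in TP. For fatty acid synthesis genes this ratio was 3.66 in control and 6.91 in TP, and for esterification and wax genes it was 6.19 and 7.14. These sums were uneven over cells, since the top cell held 22.4% of the fatty acid UMIs and 18.1% of the esterification UMIs of the control cells (12.2% and 15% in TP). The median control cell had 732 CPM of fatty acid genes, below the 887 CPM of all other cells, and 0 UMIs of esterification and wax genes. The median TP cell had 1170 CPM and 258 CPM. For cholesterol enzymes the median control cell had 1047 CPM, below the 1365 CPM of all other cells. The median TP cell had 1991 CPM of them, against 1789 CPM in all other cells of that library.

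Far2, Elovl3, Scd3, Scd1 and Elovl6 lay farthest above other cells. Far2 stood at 386 CPM in control (52 UMIs) and 471 CPM in TP (316 UMIs), and no other named class passed 3.01 CPM. Sebocyte-like cells held 42.3% of all Far2 UMIs in control and 79.2% in TP. After thinning to 1000 UMIs a Far2 UMI was found in 20.8% of 48 control cells (exact binomial interval, 10.5% to 35.0%) and in 28.2% of 78 TP cells (18.6% to 39.5%), and without thinning in 30% and 57.7%. In IFE basal-like cells it was found, without thinning, in 0.141% of 2839 control cells and 0.16% of 3121 TP cells. Scd1 stood at 1078 and 2017 CPM, against 82.9 and 81.8 CPM in all other cells. Elovl6 stood at 1524 and 1735 CPM, and Elovl3 at 96.6 and 191 CPM. Dgat2 was 2.41 times the level of other cells in control and 1.22 times in TP. Some of the 32 genes were low here: Scd2 had 29.7 and 38.7 CPM against 186 and 114 CPM in other cells, and Sc5d had 2 and 4 UMIs.

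**Figure D5:**
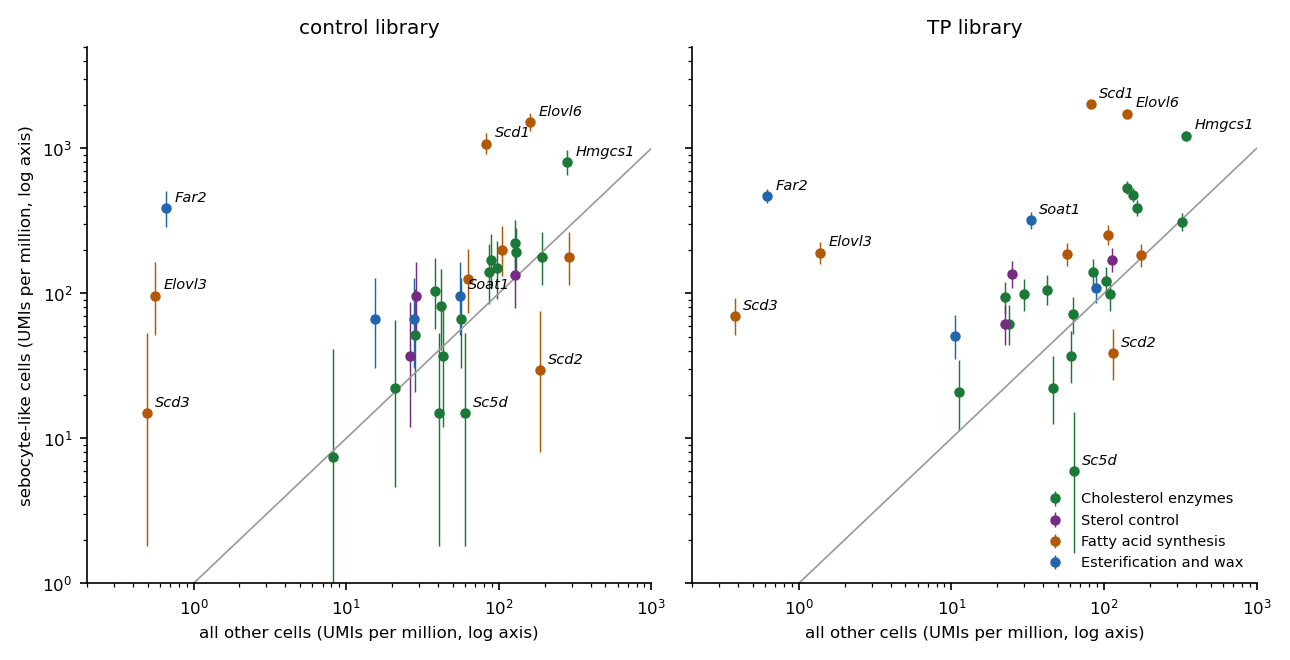
CPM of each of the 32 genes in sebocyte-like cells (vertical, log axis) against all other cells of the same library (horizontal, log axis), 1 panel per library. Bars are 95% counting intervals, and the diagonal marks equal levels. Far2, Scd3 and Elovl3 lie farthest above it, and Dhcr7 in control, at 0 UMIs in sebocyte-like cells, is not drawn.

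Between the libraries, sebocyte-like cells of TP had a higher sum of cholesterol enzymes (1.69 times, 1.5 to 1.91) and of fatty acid genes (3248 CPM in control and 4674 CPM in TP, 1.44 times, 1.30 to 1.59). Of 29 genes tested in this class, 7 exceeded the 2-fold threshold with more in TP and 0 with less, against 13.9% of all genes tested that were apart (5.10% higher and 8.82% lower). They were Mvd (3 UMIs in control and 41 in TP), Idi1 (193 and 536 CPM, 2.77 times), Cyp51 (223 and 478 CPM, 2.14 times), Msmo1 (141 and 389 CPM, 2.75 times), Ebp (2 and 48 UMIs), Scd3, a close copy of Scd1 (2 and 47 UMIs), and Soat1 (96.6 and 320.2 CPM, 3.31 times). Genes entered this count with 20 UMIs in both libraries together, and the TP cells held most of the UMIs of the class, so that Mvd, Ebp, Scd3, Soat1 and Msmo1 had fewer than 20 UMIs in control and passed through TP, where they were high. The count is therefore partly set by the filter and is a description. The value of Scd3 rested on 1 cell, which held 36 of its 47 TP UMIs. Single cells weighed on the sums too, since the top cell held 10.2% of the cholesterol enzyme UMIs in control and 14.2% in TP. Median depth was 2458.5 UMIs in control and 7625 UMIs in TP. The IFE suprabasal markers summed to 1925 and 2812 CPM in these cells and the inner root sheath markers to 2021 and 494 CPM, and their part was not tested. Thinning to 1000 UMIs moved the ratio of sebocyte-like cells to all others in control from 1.66 to 1.27.

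Leaving these cells out turned 3 of the ratios over all cells below 1. Far2 was then 0.94 times the control level in place of 2.59, Scd1 0.99 in place of 1.09 and Scd3 0.77 in place of 1.42. Elovl3 stayed higher in TP at 2.47 times. A part of the Elovl3 UMIs sat in single cells elsewhere: in cortex-like cells of TP, 50 of its 51 UMIs came from 1 cell, and in IFE basal-like cells 13 of 18.

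In the other keratinocyte and hair classes the summed level of the cholesterol enzymes was moderately higher in TP. The ratio was 1.33 in medulla and companion layer-like cells, 1.31 in inner root sheath-like cells, 1.19 in upper hair follicle-like cells, 1.18 in germinative layer-like cells, 1.17 in IFE basal-like cells and 1.10 in cortex-like cells. Outer bulge-like cells had 1.06, with an interval from 0.999 to 1.13. Hmgcs1 was the leading enzyme in each of these 7 classes. Single enzymes were split in some of them: 8 higher and 9 lower in IFE basal-like and in outer bulge-like cells. In cortex-like cells 8 were higher and 8 lower of 16 tested. Of 17 enzymes, 14 were higher in medulla and companion layer-like and in inner root sheath-like cells. In upper hair follicle-like and in germinative layer-like cells 13 were higher. In medulla and companion layer-like cells it had 689.6 CPM in control and 1021 CPM in TP, and 0 of 29 genes tested were apart by 2-fold there, against 7.39% of all genes tested. Epidermal marker RNA was higher in TP in the same classes. The 9 IFE suprabasal markers summed to 2280 CPM in control and 10135 CPM in TP in medulla and companion layer-like cells, 2791 and 11277 CPM in inner root sheath-like cells and 4274 and 14181 CPM in cortex-like cells. They summed to 12225 and 21879 CPM in upper hair follicle-like cells, 2113 and 3282 CPM in germinative layer-like cells, 3665 and 6660.1 CPM in IFE basal-like cells and 3032 and 4636 CPM in outer bulge-like cells. The 8 inner root sheath markers moved the other way in most of them, with 9014 and 5532 CPM in medulla and companion layer-like cells, 1938 and 486 CPM in cortex-like cells, 2447 and 637 CPM in upper hair follicle-like cells, 3528 and 1224 CPM in germinative layer-like cells, 2504 and 740.4 CPM in IFE basal-like cells and 2787 and 543 CPM in outer bulge-like cells. In inner root sheath-like cells themselves they summed to 16355 and 18429 CPM, and the 9 cortex markers in cortex-like cells to 8044 and 13575 CPM. The part of these shifts in the enzyme levels was not tested.

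Lss was lower in TP in most of these classes. It had 48.7 CPM in control and 15.8 CPM in TP in cortex-like cells (0.32 times, 0.16 to 0.60), 45.8 and 22.7 CPM in germinative layer-like cells (0.49 times) and 42.2 and 30.6 CPM in inner root sheath-like cells (0.72 times). Medulla and companion layer-like cells had 90.04 and 94.7 CPM (1.05 times), so the low ratio was not found in every class. Msmo1 was the opposite case, at 54.9 and 116 CPM in IFE basal-like cells (2.11 times) and 73.4 and 144 CPM in inner root sheath-like cells (1.96 times). Soat1 was low in several of these classes and lower in TP: 8.53 and 0.82 CPM in inner root sheath-like cells and 16.5 and 2.73 CPM in upper hair follicle-like cells. Sebocyte-like cells, given above, had a higher level in TP, and myeloid-like cells had 108 and 126 CPM. The background shares of genes apart by 2-fold were 7.59% in IFE basal-like cells, where Elovl3 and Msmo1 were higher and Scd2 and Soat1 lower, 11% in inner root sheath-like cells, where Dgat2, Elovl3 and Scd3 were higher and Soat1 lower, and 11.1% in cortex-like cells, where Dgat2 and Elovl3 were higher and Lss and Soat1 lower. Elovl3 had 3 UMIs in control and 18 in TP in the first of these classes, 9 and 42 in the second and 6 and 51 in the third, so it passed the filter of 20 UMIs through TP or both together, and Scd3 had 9 and 11 UMIs. Soat1 was the single gene apart, and lower, in 3 further classes: germinative layer-like cells (background 6.69% apart and 4.34% lower), outer bulge-like cells (9.95% and 6.49%) and upper hair follicle-like cells (8.47% and 6.66%). Soat1 had 25 UMIs in control and 2 in TP in cortex-like cells, 134 and 7 in inner root sheath-like cells and 50 and 6 in germinative layer-like cells. There it passed the filter through control, where it was high. Single control cells held 11 of the 25 UMIs in cortex-like cells and 17 of 45 in upper hair follicle-like cells. Lss had fewer than 20 UMIs in TP in cortex-like cells and also passed the filter through control, where it was high. These Soat1 and Lss counts are a description.

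Fatty acid genes were lower in TP in 14 of the 16 classes, with 13 intervals below 1. Acaca was lower in every named class but the sebocyte-like one (1.03 times). In the hair and epidermal classes its ratio ran from 0.68 in germinative layer-like cells to 0.93 in cortex-like cells. Scd2 was at 62.4 CPM in control and 20.4 CPM in TP in IFE basal-like cells (0.33 times). The inner root sheath markers, given by class above and below, were lower in TP in most of the same classes, and their part in the fatty acid sums was not tested. In the 10 unnamed clusters the fatty acid ratio ran from 0.42 to 1.14, with 1 cluster above 1, and the cholesterol enzyme ratio from 0.74 to 1.32, with 6 clusters above 1. The direction of the fatty acid sums depended on the scaling: with TMM factors within each class 5 classes were higher in place of 2.

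Melanocyte-like cells, which make the pigment of the hair, had lower levels in TP in all 4 roles. The cholesterol sum was 0.87 times the control level (0.99 times with TMM factors) and the sterol control sum 373 CPM in control and 213 CPM in TP (0.571 times, 0.488 to 0.666). Insig1, Srebf1 and Srebf2 had ratios of 0.55, 0.57 and 0.59. Fdft1 had 189.6 and 88.9 CPM (0.47 times) and Acaca 394 and 159.5 CPM (0.40 times), while Ebp had 57.7 and 136 CPM (2.36 times). These 3 together with Lss were the 4 genes apart by 2-fold of 29 tested, against 17.5% of all genes. The inner root sheath markers summed to 3521 and 566 CPM in these cells and the IFE suprabasal markers to 3089 and 3890 CPM, and their part was not tested.

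In dermal and immune classes the cholesterol enzymes were lower in TP or near equal. Myeloid-like cells had 790.5 CPM in control and 411 CPM in TP (0.52 times, 0.43 to 0.63), endothelial-like cells 718 and 472 CPM (0.66 times), smooth muscle and pericyte-like cells 635 and 490.4 CPM (0.77 times) and dermal sheath-like cells 829 and 682 CPM (0.82 times). Dermal fibroblast-like cells had 558 and 521 CPM (0.93 times, 0.83 to 1.05), which turned to 1.24 times with TMM factors within the class. Dermal papilla-like cells, the signalling centre at the base of the hair, differed from these with a ratio of 1.21 (1.17 to 1.24), and 0 of 29 genes tested were apart by 2-fold there, against 13.9% of all genes tested. The IFE suprabasal markers summed to 2041 and 3402 CPM in these cells and the inner root sheath markers to 2252 and 430.1 CPM, and their part in this ratio was not tested.

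Single genes in the smaller classes were counted in the same way. In myeloid-like cells, 13 of 19 genes tested were at least 2-fold lower and 0 higher, against 26.1% of all genes tested that were apart and 18.7% that were lower, and fatty acid genes summed to 426 and 161 CPM (0.38 times). The 13 included Hmgcs1, Sqle, Cyp51, Fasn and Srebf2. In smooth muscle and pericyte-like cells 5 of 15 were lower (Idi1, Cyp51, Acaca, Scd2 and Elovl6), against 12.4% of all genes apart and 6.56% lower. In endothelial-like cells 3 of 21 were lower (Idi1, Fdft1 and Hsd17b7), against 11.6% apart and 6.88% lower. Dermal sheath-like cells had Lss and Scd1 lower of 28 tested, against 12.9% apart and 8.42% lower, and dermal fibroblast-like cells had Ebp higher and Lss and Elovl6 lower of 28, against 19.9% apart. Ebp had 8 UMIs in control and 268 in TP there, so it passed the filter through TP, where it was high. The counts are small in these classes, the 13 genes in myeloid-like cells having 6 to 26 UMIs in control and 10 to 57 in TP. Single cells weighed on them, since the top myeloid-like cell held 14.3% of the cholesterol enzyme UMIs in control and 3.41% in TP. Dgat2, among the 13, had 4 of its 6 control UMIs in its top cell. Without the top cell of each library, Dgat2 stood at 10.9 CPM in control and 12.4 CPM in TP, and so was not lower. The 77 control and 224 TP myeloid-like cells differed in depth, with medians of 2024 and 5080.5 UMIs.

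Inner root sheath transcripts in those cells were lower in TP, and IFE suprabasal transcripts were higher except in myeloid-like cells. The cholesterol enzyme sums were lower too, but in dermal fibroblast-like cells the interval given above covered equal levels. The 8 inner root sheath markers summed to 2638 CPM in control and 436 CPM in TP in myeloid-like cells, 3458 and 617 CPM in endothelial-like cells, 2566 and 522 CPM in smooth muscle and pericyte-like cells, 2352 and 378 CPM in dermal fibroblast-like cells and 2243 and 420.1 CPM in dermal sheath-like cells. The 9 IFE suprabasal markers summed to 6570 and 3857 CPM in myeloid-like cells, 2264 and 6671 CPM in endothelial-like cells, 2511 and 3721 CPM in smooth muscle and pericyte-like cells, 2512 and 3010.5 CPM in dermal fibroblast-like cells and 2066 and 4457 CPM in dermal sheath-like cells. The part of such RNA from other cells in the lower enzyme levels was not tested. The cluster named smooth muscle and pericyte-like also carried skeletal muscle genes, and that named dermal fibroblast-like also carried Schwann cell genes.

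Other genes of the pathway were counted as lists. Of 19 other cholesterol and SREBP genes, 7 had a level above control over all cells, with a median log2 ratio of -0.12. Among those above were Npc2, which carries cholesterol out of lysosomes (1.28 times), and Nr1h3, a nuclear receptor that senses oxysterols (1.21 times, 0.925 to 1.59). Lbr, which shares the sterol reductase step of Tm7sf2, had 134 and 67.3 CPM (0.50 times). In IFE suprabasal-like cells 8 of 17 such genes tested were above control (against 28% of all genes), 0 at least 2-fold higher and 1 lower, which was Abca1, a cholesterol exporter (0.48 times).

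Of 25 other fatty acid genes tested, 11 were above control over all cells, 3 at least 2-fold higher and 2 lower. Over all genes tested 34.7% were above control, beside the 18.5% apart by 2-fold given earlier. The 3 were the elongases Elovl4 (97.2 CPM in control and 313 CPM in TP, 3.22 times), Elovl1 (64.1 and 192 CPM, 2.99 times) and Elovl7 (35.2 and 96.4 CPM, 2.74 times), each highest in IFE suprabasal-like cells. Elovl4 makes the very long chains of barrier ceramides. Fads2, a desaturase, was among the lower ones (26.3 and 10.2 CPM, 0.39 times), with Mlxipl, a factor that turns on lipid synthesis, at 0.29 times. Of 15 other sebum and lipid droplet genes tested, 8 were above control, 2 at least 2-fold higher and 2 lower. Among them were Cidea (5.76 times) and Plin1 (0.16 times), both lipid droplet proteins. Cidea was also a marker of the sebocyte-like class, which held 60.9% of its UMIs in control and 73.6% in TP. Within that class it had 290 CPM in control and 506 CPM in TP. Plin1 had 59 UMIs in control and 12 in TP, so it passed the filter through control, where it was high. In IFE suprabasal-like cells, where 28% of all genes tested were above control, 14 of 23 other fatty acid genes tested were above control, 1 at least 2-fold higher (Elovl1) and 4 lower (Fads1, Fads2, Fads3 and Acsl3). There 2 of 13 other sebum and lipid droplet genes tested were above control, with a median log2 ratio of -0.32.

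Counting is uncertain for some of the 32 genes, because the reads come from the 3′ end of transcripts. Of the 31-base words in the last 500 bases of their coding transcripts, 46.8% of those of Fdps, 44.1% of Idi1, 19.3% of Acaca, 12.8% of Fdft1, 11.7% of Tm7sf2 and 11.6% of Elovl6 also occur in transcripts of other genes. Reads from such stretches could be lost or assigned elsewhere, and whether this was alike in both libraries was not tested. The close copies Scd1, Scd2 and Scd3 shared 2.69%, 0.635% and 7.66% of theirs.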

How the data were processed

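Dorsal skin cells of control and TP mice, pooled from 15 mice per group, were captured with the GEM-X 3′ v4 chemistry. The authors made the deposited UMI counts per gene and cell barcode with Cell Ranger 8.0.1 on mm10, per the labels and the study's methods. Per the methods, that pipeline had already filtered the cell barcodes. The limit on mitochondrial counts and normalization had not been applied to the deposited counts. Columns of no sample numbered 0. The counts held 130999979 UMIs in control and 166929585 in TP.

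From these counts, cells were kept by the limits of the study, which are 200 and 8000 detected genes and a mitochondrial share of 10%. Doublets were removed by a rewritten DoubletFinder procedure (25% artificial doublets, 7.5% of barcodes called). Cells were integrated by reciprocal principal components and clustered in Seurat 5.3.0 (R 4.3.3; 2000 variable genes without the 32 genes described, 30 components, resolution 1). One cluster with the highest sebocyte score was clustered again (20 components, resolution 0.6). Clusters were named "-like" where the score of a marker list reached 1.25, or 0.8 with at least 2 of its markers among the 10 leading genes, with at least 3 markers detected and more of its own than other lists' markers leading. These thresholds were set after the clusters were seen. Classes needed 50 cells in each library.

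UMIs were summed per library and class and scaled to 1000000 (CPM). Ratios carry exact conditional binomial 95% intervals and levels exact Poisson ones. A gene was counted as apart at a log2 ratio of at least 1 in size, with 1 UMI added per library, leaving out genes whose libraries summed to fewer than 50 UMIs (20 within a class). TMM factors came from edgeR 4.0.16, used for scaling alone. The counting was tested on simulated data. No test was run with 1 library per group. The genes named are all 32 members, and the 3 largest rises and 3 largest falls of each other list, with the values in IFE suprabasal-like cells given after their values were seen. Some genes of these lists are not reported here. The members and lists were chosen with earlier results of these data known. Alternatives were other scalings, population shares, no mitochondrial limit, doublets kept, no low-count filter, another pseudocount, other resolutions and cells thinned to 1000 UMIs.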

Additional observations from a re-analysis of the deposited data

Results flagged for a closer look

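For each role, the ratios of TP to control lay on opposite sides of 1 in different classes, which is what brings these pairs here. The difference between the classes of a pair was not tested, since each class has 1 sample per group. Cholesterol enzymes were at 0.52 times the control level in myeloid-like cells and at 1.76 times in IFE suprabasal-like cells. The sterol control genes were at 0.571 times in melanocyte-like cells and at 1.37 times in sebocyte-like cells, where the interval from 0.963 to 2.00 includes 1. Fatty acid synthesis genes were at 0.379 times in myeloid-like cells and at 1.44 times in sebocyte-like cells. Esterification and wax genes were at 0.669 times in outer bulge-like cells and at 1.66 times in IFE suprabasal-like cells.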

How the results depend on the processing

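No paired analysis was possible because each group is 1 pooled library, and for the same reason no replicate could be left out. The cholesterol enzyme ratio over all cells (1.32) was 1.57 with TMM factors, 1.23 with the population shares of control, 1.30 with no mitochondrial limit, 1.36 with doublet calls kept, 1.10 with cells thinned to 1000 UMIs and 1.43 without unnamed clusters. It turned to 0.966 without IFE suprabasal-like cells. The fatty acid ratio (0.782) was 0.931, 0.880, 0.793, 0.695 and 0.826 for TMM factors, population shares, no mitochondrial limit, thinning and no unnamed clusters, 0.686 without IFE suprabasal-like cells and 0.762 without sebocyte-like cells. The esterification ratio (1.37) was 1.63 with TMM factors, 1.06 with population shares, 1.46 with doublet calls kept, 1.24 with thinning and 1.17 without unnamed clusters, and turned to 0.971 without IFE suprabasal-like cells. The mean over cells of ln(counts per 10000 + 1), the usual log-normalization of Seurat, was also averaged over the genes of each role. TP minus control was then 0.0805 for cholesterol enzymes, -0.0226 for fatty acid genes and 0.0401 for esterification genes. This average gives each gene the same weight, unlike the sums.

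The sterol control ratio turned to 1.06 with TMM factors and 1.04 with population shares, and its ln difference was 0.0357. TMM factors also turned Insig1 (1.03), Srebf1 (1.06), Srebf2 (1.06), Fasn (1.09) and Elovl6 (1.10), population shares turned Sc5d (0.952), Insig1 (1.24), Srebf2 (1.02), Hsd17b7 (0.959) and Acly (0.909), and thinning turned Mvd (0.878), Idi1 (0.875), Sqle (0.913), Cyp51 (0.985), Nsdhl (0.936), Sc5d (0.886), Scd1 (0.896) and Scd3 (0.903), with Hsd17b7 (0.874) and Acly (0.85), whose intervals included 1 as reported. The cause was not tested. Genes of the 32 apart by 2-fold numbered 3 as reported, 5 with TMM factors, 1 with a pseudocount of 0.1 per 10000 and 1 with population shares. Over all genes tested 3258 were apart (18.5%, 1443 higher and 1815 lower) and 3026 with TMM factors (17.2%, 1984 higher and 1042 lower). There were 7047 with no low-count filter (26.9%), 438 with the larger pseudocount (2.49%) and 1156 with population shares (6.58%). Classes with a higher cholesterol sum numbered 9 to 11 under all alternatives (10 as reported), and those with a higher fatty acid sum 5 with TMM factors in place of 2. The control ratio of sebocyte-like to other cells (1.66) was 1.27 with thinning. The alternatives that leave out a class were chosen after the data were seen. The 50 control sebocyte-like cells and the 77 control myeloid-like cells limit the precision of their classes.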
